A study of Mus musculus with 19 samples.

Results

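The 10 genes described here join a repressor of methylated DNA, a pair of Myc proteins and the route from glucose to lactate. They are Mbd2, Myc, Mycn, Slc2a1, Slc2a3, Hk2, Pfkp, Pkm, Ldha and Ldhb. They were chosen by name, because Mbd2 has been reported as a target through which the miR-290 and miR-302 microRNAs raise Myc and glycolysis. All 10 had a row among the 12778 genes of the expression matrix. The 3′ ends of polyadenylated transcripts were sequenced in 19 libraries of mouse cells grown in medium with LIF and serum. The study asked what the loss of either microRNA cluster, or of both, does to cells reprogrammed from embryonic fibroblasts. Induced pluripotent stem cells (iPSC) had been made from mouse embryonic fibroblasts with Oct4, Sox2 and Klf4, without Myc among the named factors, and were collected more than 18 passages later. The 4 iPSC groups were wild type (WT, 3 libraries), miR-290KO, miR-302KO and miR-290KO;miR-302KO (double KO). In the 3 KO groups of iPSC, 2 colonies had been derived independently, and each gave 2 libraries. The other groups were embryonic stem cells (ESC), miR-290KO and miR-302KO, with 2 libraries each. WT ESC were not analysed here. The WT iPSC are not stated to be independent derivations, nor are the ESC libraries of a group, so p-values may measure a spread that is partly technical.

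Mbd2 encodes a protein that binds methylated CpG sites and recruits the NuRD complex, which removes acetyl groups from histones and remodels nucleosomes. Myc and Mycn are transcription factors that, paired with Max, bind the sequence CACGTG and activate genes of ribosome production and metabolism. Glucose enters through the carriers Slc2a1 and Slc2a3, is phosphorylated by hexokinase (Hk2), committed to glycolysis by phosphofructokinase (Pfkp), and turned into pyruvate by pyruvate kinase (Pkm). The lactate dehydrogenase subunits A and B (Ldha, Ldhb) interconvert pyruvate and lactate. Pluripotent cells and reprogramming fibroblasts are known for a high rate of glycolysis.

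The miR-290 and miR-302 clusters lie on different chromosomes but largely share a seed, bases 2 to 8 of the mature microRNA, which pairs with targets. RefSeq (GRCm38.p6) gave 9 mature 3p microRNAs of the 2 clusters, 6 from miR-290 on chromosome 7 and 3 from miR-302 on chromosome 3. A 3p form of miR-292 or miR-302a was not among these 9, so the set may be incomplete. The 5 that carry the seed AAGUGCU are shown, with the seed in capitals, because they are the part that a single KO removes from one cluster and leaves in the other.
miR-291a-3p: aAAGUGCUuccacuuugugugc
miR-294-3p: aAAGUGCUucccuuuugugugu
miR-295-3p: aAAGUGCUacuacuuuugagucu
miR-302b-3p: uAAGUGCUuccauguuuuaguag
miR-302d-3p: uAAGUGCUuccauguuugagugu
The other 4 differ from this seed: miR-290a-3p has AAGUGCC, miR-291b-3p AAGUGCA, miR-293-3p GUGCCGC and miR-302c-3p AGUGCUU.

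The 7 bases that pair with the shared seed, AGCACTT on the strand of the transcript, were searched in the longest annotated 3′ untranslated region of each gene (GENCODE vM21, GRCm38). They occurred once each in Mbd2, Mycn, Pfkp and Ldha, 4 of the 10 genes, against 17.5% of 11844 measured genes. The inner 6 bases, GCACTT, which every such match contains, occurred in 5 of the 10, with Slc2a1 added, against 33.2% of measured genes. The matches in Mycn, Pfkp and Ldha are shown with the 7 bases in capitals, since their genes are among those called below in at least 1 comparison. The site in Mbd2 is not shown here. They start at base 860 of 913 in Mycn, base 80 of 1692 in Pfkp and base 18 of 486 in Ldha.
Mycn: agtgctgcaccttagAGCACTTtgaaatac
Pfkp: acatagttatttatcAGCACTTtatggaag
Ldha: tcttccccgtgtcctAGCACTTcactgtcc
A match is a description of the sequence and no evidence of binding. The untranslated regions of Myc, Hk2, Pkm, Ldhb and Slc2a3 held neither run of letters.

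Levels are given as counts scaled to the total of each library (CPM) from whole reads recovered out of the deposited log2 values, 6372806 to 24756999 reads per library (median 17383929). Means are over samples, that is colonies or, in WT iPSC and ESC, libraries. Log2 differences are between means of the deposited log2 values, which hold a prior of 2.5 reads on average. They are therefore not the log2 of a ratio of mean CPM, and near the floor the prior makes them smaller. Floors allow for counting error alone, as amplified reads were not traced to single molecules. The second library of colony 1 of the miR-302KO iPSC stood apart: its 20 most abundant genes took 16.6% of its reads, against 7.8% to 13.5% elsewhere. The double KO cells did not match the label iPSC by their markers. The summed level of 8 pluripotency genes (Pou5f1, Sox2, Nanog and others) was 58.3 to 109 CPM in the double KO libraries, 2476 to 3091 in WT and 2520 to 4141 in the other groups. The 4 measured fibroblast markers summed to 2.91 to 9.10 CPM in the double KO and 6.79 to 8.25 in WT. In such bulk samples, fewer cells of a type and less RNA per cell cannot be told apart. The 2 measured primitive endoderm markers summed to 0.231 to 2.66 CPM in the double KO, with Gata4 at 0 reads, and the 5 trophoblast markers to 12.1 to 65.2, against 104 to 364 in WT. The double KO thus differed from WT in these marker levels as well as in genotype, and the part of that in the values below was not tested. The labels name no batch or date.

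Mbd2 (chromosome 18, 70568189 to 70626131, plus strand, GRCm38) was higher in double KO iPSC than in WT iPSC. The 3 WT libraries had 9.66, 12.4 and 14.3 CPM, and the double KO libraries 41.2 and 25.1 (colony 1) and 55.1 and 44.5 (colony 2). The ranges did not overlap. The means were 12.1 ± 2.35 (SD, n = 3) and 41.5 ± 11.8 (n = 2 colonies), a log2 difference of 1.72 (SE 0.34, limma adjusted p = 0.00132), or 3.30-fold with a 95% interval of 1.97 to 5.55. Mbd2 also rose in double KO against miR-302KO iPSC, by 1.68 on the log2 scale (adjusted p = 0.00314). Both calls held in all 23 alternative analyses. The double KO call comes in a comparison where 49% of all genes were called, and 27.4% of all genes were called higher, so a call there is common.

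In the single KO cells, Mbd2 was higher wherever miR-290 was missing, but no such difference passed the test as reported. The miR-290KO iPSC had 29.8 and 29.7 CPM in colony 1 and 17.9 and 42.5 in colony 2, all above the highest WT library. Their mean of 30.0 ± 0.321 (n = 2) had a small SD although the 2 libraries of colony 2 lay far apart. The library at 17.9 CPM had the most reads of the series (24756999) and that at 42.5 CPM the fewest (6372806). The log2 difference from WT was 1.25 (SE 0.34, 95% interval 0.50 to 2.00, adjusted p = 0.0927), and none of the 23 alternatives called it. Against miR-302KO iPSC the difference was 1.2 (SE 0.38, adjusted p = 0.113), which was called with each library as a sample (adjusted p = 0.0271, or 0.0397 with a within-colony correlation). For miR-290KO against WT iPSC, the authors' deposited table, from their own test, lists Mbd2 at a log2 change of 1.15 (adjusted p = 0.00324). That adjusted p and the limma value of 0.0927 come from different analyses and are not the same measure. The miR-302KO iPSC had 13.9, 9.34, 10.4 and 17.3 CPM, across the WT range, with a log2 difference of 0.05 (95% interval −0.70 to 0.80, adjusted p = 0.959). In ESC the order was alike: 16.4 and 32.5 CPM without miR-290, 13.8 and 9.75 without miR-302, a log2 difference of 0.98 that did not pass (adjusted p = 0.285). From the lowest to the highest mean, the groups stood as miR-302KO ESC (11.8), WT iPSC (12.1), miR-302KO iPSC (12.7), miR-290KO ESC (24.5), miR-290KO iPSC (30.0) and double KO iPSC (41.5). Neighbours in this order overlapped in their samples except at the steps from miR-302KO iPSC to miR-290KO ESC and from miR-290KO to double KO iPSC. The double KO exceeded the miR-290KO by 0.47 (95% interval −0.34 to 1.29), which did not pass the test.

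**Figure D1:**
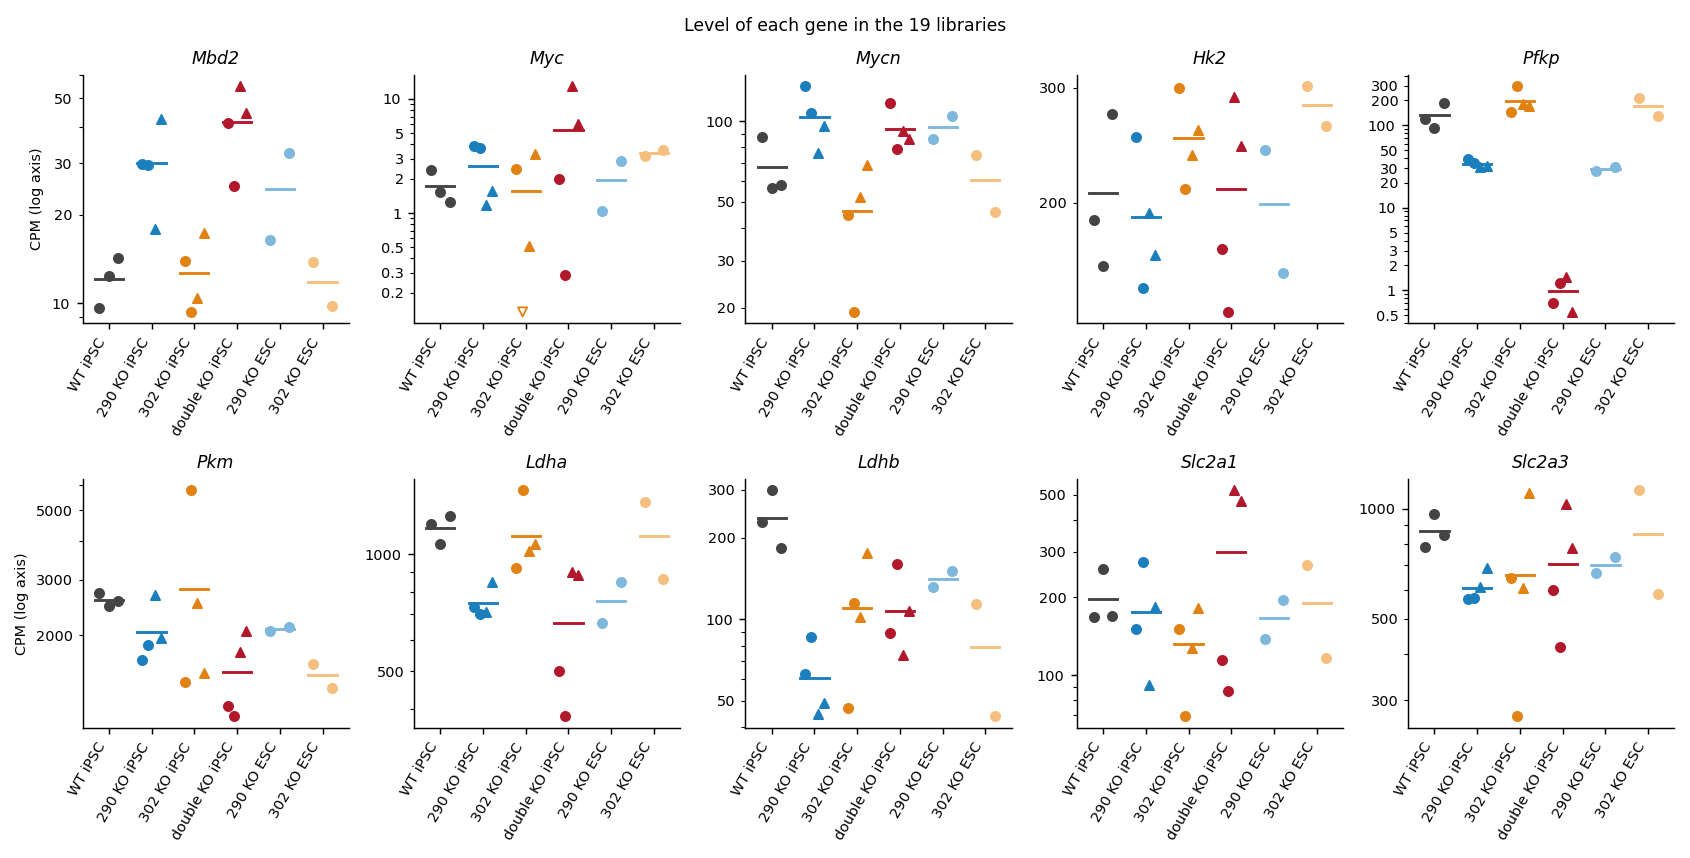
Level of each of the 10 genes in CPM (log axis, own range per gene) in every library of the 6 groups; circles are WT, ESC and colony 1 libraries, triangles colony 2, the open triangle a library with 0 reads drawn at its floor of 3 reads, and bars the mean over samples. Mbd2 has its highest mean in the double KO (41.5 CPM, libraries 25.1 to 55.1), where Pfkp falls to 0.545 to 1.45 CPM.

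Myc (chromosome 15, 61985391 to 61990374, plus strand) had few reads, 0 to 225 per library against floors of 3. WT libraries had 2.39, 1.54 and 1.25 CPM. The double KO had 1.97 and 0.287 CPM in colony 1 but 13 and 6.06 in colony 2. Its second colony thus held the highest libraries of the series and its first the lowest but 1. The log2 difference from WT was 0.70 with a 95% interval of −1.22 to 2.61 (adjusted p = 0.538), an interval that holds both a fall and a rise. The miR-290KO iPSC had 3.87, 3.72, 1.17 and 1.57 CPM. The miR-302KO iPSC had 2.42, 0, 0.513 and 3.31, the 0 being the library that stood apart (floor 0.136 CPM). The ESC had 1.05 and 2.86 CPM without miR-290 and 3.14 and 3.58 without miR-302. Myc was called in no comparison of the analysis as reported. Without colony 1 of the double KO it was called against miR-302KO iPSC, at 3.24 on the log2 scale (adjusted p = 0.0168).

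Mycn (chromosome 12, 12936093 to 12941914, minus strand) had 426 to 2994 reads per library, more than Myc. WT libraries had 87.4, 56.3 and 58.0 CPM and double KO libraries 117, 78.8, 92.4 and 86.3, a log2 difference of 0.49 that did not pass (adjusted p = 0.224). The miR-290KO iPSC had 136, 108, 76.2 and 96.0 CPM and the miR-302KO iPSC 44.7, 19.3, 51.9 and 68.8, without overlap. Mycn rose in double KO against miR-302KO iPSC by 1.14 on the log2 scale (SE 0.35, adjusted p = 0.0183). This call was lost without colony 1 of the miR-302KO (0.63, adjusted p = 0.194) and without either double KO colony (1.09 and 1.19, adjusted p = 0.0776 and 0.0524). It was also lost under median-of-ratios scaling (0.85, adjusted p = 0.0521) and with only the groups compared (adjusted p = 0.0665). The miR-290KO iPSC exceeded the miR-302KO iPSC by 1.28, which did not pass (adjusted p = 0.0754). Without colony 2 of the miR-302KO this difference was called, at 1.79 (adjusted p = 0.0149). In ESC the corresponding difference was 0.70 (adjusted p = 0.442), from 85.9 and 105 CPM against 75.0 and 45.6. Neither Myc nor Mycn passed the test against WT in any KO group.

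The genes of glucose entry passed the test in no comparison. Slc2a1 (chromosome 4, 119108711 to 119137983, plus strand), the widely expressed glucose carrier, had 168, 257 and 170 CPM in WT. In the double KO, colony 1 had 115 and 87.0 CPM and colony 2 had 520 and 472. WT lay between the colonies, and the log2 difference of 0.20 (95% interval −0.98 to 1.38, adjusted p = 0.785) averages over that split. Without colony 1 the difference was 1.35 and was called (adjusted p = 0.0353). The single KO and ESC libraries ran from 69.4 to 273 CPM, below, within and above the WT range.

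Slc2a3 (chromosome 6, 122727809 to 122801640, minus strand), the high-affinity glucose carrier, had 787, 969 and 847 CPM in WT and 566, 571, 611 and 690 in miR-290KO iPSC, without overlap. The log2 difference was −0.51 (SE 0.33, adjusted p = 0.471). Double KO libraries had 601 and 419 CPM in colony 1 and 1028 and 783 in colony 2. The authors' deposited tables, from their own test, list Slc2a3 as lower in miR-290KO (−0.65, adjusted p = 0.0119) and in double KO iPSC (−0.59, adjusted p = 0.0487). Hk2 (chromosome 6, 82725025 to 82774454, minus strand), which traps glucose in the cell as its phosphate, had 188, 160 and 273 CPM in WT and 136 to 290 in the double KO. Its log2 difference was −0.01 with a 95% interval of −0.61 to 0.59, and the 6 groups overlapped except for the step between the 2 highest, miR-302KO iPSC (251) and miR-302KO ESC (282).

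Pfkp (chromosome 13, 6579768 to 6648777, minus strand), which encodes the platelet form of phosphofructokinase, fell further than any of the other 9 genes. WT libraries had 120, 92.4 and 186 CPM and double KO libraries 0.700, 1.22, 1.45 and 0.545, which is 62 reads in 4 libraries. The log2 difference was −6.91 (SE 0.29, adjusted p = 1.72e-09), or 120-fold with a 95% interval of 78.3 to 185. Without miR-290 alone, Pfkp fell by 1.90 on the log2 scale (3.73-fold, 95% interval 2.43 to 5.73, adjusted p = 0.00842). The 4 libraries had 38.8, 34.7, 31.1 and 31.8 CPM, all below WT. Of the 23 alternatives, 1 lost this call, leaving out colony 2 of the miR-290KO (−1.79, adjusted p = 0.154). Without miR-302 alone, the libraries had 143, 300, 181 and 171 CPM, overlapping WT, and the log2 difference was 0.58 (95% interval −0.04 to 1.2, adjusted p = 0.351). The second of these was the library that stood apart.

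The ESC showed a like difference in Pfkp. The miR-290KO ESC had 28.0 and 31.2 CPM and the miR-302KO ESC 214 and 129, a log2 difference of −2.49 (SE 0.31, adjusted p = 0.00483). In iPSC the same difference was −2.48 (SE 0.31, adjusted p = 0.00327). The difference between these 2 was 0.00 with a 95% interval of −0.96 to 0.96. The ESC call was lost when only the 2 ESC groups were fitted (adjusted p = 0.142) and without either miR-290KO ESC library (−2.41 and −2.56, adjusted p = 0.1 and 0.0695). The iPSC call was lost without colony 2 of the miR-290KO (−2.37, adjusted p = 0.0549) and without colony 1 of the miR-302KO (−2.37, adjusted p = 0.053). Pfkp was also lower in double KO than in miR-290KO iPSC, with a log2 difference of −5.01 (adjusted p = 1.32e-07). The order of means was double KO iPSC (0.978), miR-290KO ESC (29.6), miR-290KO iPSC (34.1), WT iPSC (133), miR-302KO ESC (172) and miR-302KO iPSC (199). Only the last 3 overlapped with their neighbours.

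The enzymes that end the route were lower in the double KO, by less than Pfkp. Pkm (chromosome 9, 59656368 to 59679375, plus strand) had 2724, 2484 and 2573 CPM in WT and 1187, 1105, 1775 and 2057 in the double KO, without overlap. The log2 difference was −0.81 (SE 0.24, adjusted p = 0.0129), a call lost with each library as a sample (adjusted p = 0.0733, or 0.0841 with a within-colony correlation). The 2 Pkm isoforms differ in an inner exon and share their 3′ end, so these libraries cannot tell them apart. In miR-302KO iPSC the library that stood apart had 5788 CPM and the other 3 had 1416, 2525 and 1514. The fall of Pkm in double KO against miR-302KO iPSC (−0.68, adjusted p = 0.0468) rests on that library: without it the difference was −0.17 (adjusted p = 0.585).

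Ldha (chromosome 7, 46841475 to 46855627, plus strand), the lactate dehydrogenase subunit that prevails in glycolytic cells, had 1196, 1062 and 1254 CPM in WT. Double KO libraries had 500 and 383 in colony 1 and 901 and 886 in colony 2, all below WT. The log2 difference was −0.90 (SE 0.28, adjusted p = 0.0167). The call was also lost with a replicate block (−0.85, adjusted p = 0.063). Without colony 1 of the double KO, the falls of Ldha and Pkm were smaller and lost their calls: Ldha −0.39 (adjusted p = 0.286) and Pkm −0.44 (adjusted p = 0.205). Against miR-302KO iPSC, Ldha fell by 0.81 (adjusted p = 0.0427). That call was lost in 15 of 23 alternatives, among them the one without the library that stood apart (−0.65, adjusted p = 0.0875). In miR-290KO iPSC the 4 libraries had 731, 703, 711 and 850 CPM, all below WT, with a log2 difference of −0.65 that did not pass (adjusted p = 0.264). The authors' deposited table, from their own test, lists it there at −0.79 (adjusted p = 0.000301).

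Ldhb (chromosome 6, 142490249 to 142507957, minus strand), the subunit that prevails in oxidative tissues, was highest in WT and lower in every KO group. WT libraries had 229, 299 and 183 CPM. The miR-290KO iPSC had 62.8, 85.8, 44.7 and 49.0, the miR-302KO iPSC 46.9, 115, 102 and 175, and the double KO 89.0, 160, 73.7 and 107. No KO iPSC library reached the lowest WT library. Ldhb fell by 1.98 on the log2 scale in miR-290KO (SE 0.39, adjusted p = 0.0281) and by 1.17 in double KO iPSC (SE 0.39, adjusted p = 0.0237). In miR-302KO iPSC the difference of −1.23 did not pass (SE 0.39, adjusted p = 0.263). It passed without colony 2 of that group (−1.66, adjusted p = 0.0474). The miR-290KO call was lost in 9 of 23 alternatives. Among these were leaving out either miR-290KO colony (−2.31 and −1.66, adjusted p = 0.0557 and 0.327), any WT library (adjusted p = 0.0528 to 0.0885), or either miR-290KO ESC library (adjusted p = 0.053 and 0.0531). The double KO call was lost without colony 2 of the double KO (−0.96, adjusted p = 0.144), WT library 1 (−1.18, adjusted p = 0.0503) or WT library 2 (−0.99, adjusted p = 0.082), and with no trend in the spread (adjusted p = 0.0507). The ESC had 132 and 150 CPM without miR-290 and 114 and 43.9 without miR-302. Ldhb thus stood lower in miR-290KO than in miR-302KO iPSC (−0.76) and higher in ESC (0.99). Neither passed, nor did the difference between them (−1.74, SE 0.60, adjusted p = 0.984).

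**Figure D2:**
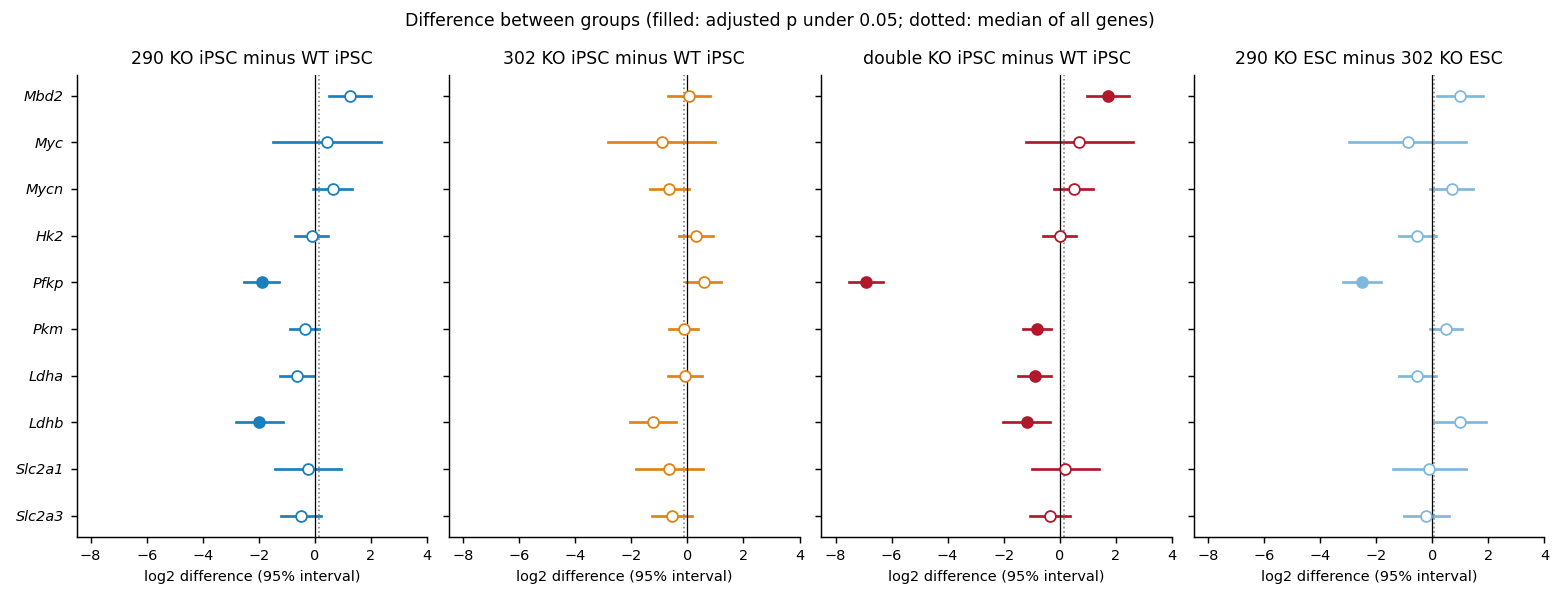
Log2 difference of each gene in 4 comparisons, with the 95% interval from limma; filled points have an adjusted p under 0.05 and the dotted line is the median of all 12778 genes. In double KO iPSC 5 genes are filled, in miR-290KO iPSC 2 (Pfkp and Ldhb), in miR-302KO iPSC none, and between the ESC groups 1 (Pfkp).

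Counted over the 10 genes, the double KO differed from WT in 5: Mbd2 higher, Pfkp, Pkm, Ldha and Ldhb lower. Since 49% of all genes were called there (27.4% higher, 21.5% lower), this share is near the background. Median-of-ratios scaling moved the median of all genes in this comparison from 0.16 to −0.09 on the log2 scale. In miR-290KO iPSC 2 of the 10 were called, Pfkp and Ldhb, both lower, against a background of 1.57% (1.21% higher, 0.36% lower). In miR-302KO iPSC 0 of the 10 were called, against 0.0313% (0.0235% higher, 0.00783% lower), and Ldhb alone had an unadjusted p under 0.05. Double KO and miR-302KO iPSC differed in 5 of the 10 (Mbd2 and Mycn higher, Pfkp, Pkm and Ldha lower), with a background of 46.9% (28.5% higher, 18.4% lower). Double KO and miR-290KO iPSC differed in 1 (Pfkp), with a background of 32.4% (15.6% higher, 16.8% lower). Between miR-290KO and miR-302KO, Pfkp was the 1 gene called both in iPSC (background 2.25%, with 1.85% higher and 0.391% lower) and in ESC (background 0.587%, with 0.376% higher and 0.211% lower). These comparisons share samples and are not independent of each other.

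The double KO was compared with the sum of the 2 single KO differences on the log2 scale. All 9 pluripotency markers in the matrix (reads recovered for 8) were called below that sum. Their median departure was −7.24, against 0.13 for all genes. The part of this marker change in the departures below was not tested. For Pfkp, the single KO differences of −1.90 and 0.58 add to −1.32, against −6.91 in the double KO. This departure passed the test (non-additivity of −5.59, SE 0.42, adjusted p = 1.81e-06) and was called in all 23 alternatives. Ldhb departed the other way. Its single KO differences add to −3.21, and the double KO stood at −1.17, a non-additivity of 2.04 (SE 0.57, adjusted p = 0.0233) that 5 of 23 alternatives lost. The value was 1.86 without WT library 2 (adjusted p = 0.0547), 1.82 without colony 1 of the double KO (0.0811), 1.71 without colony 2 of the miR-290KO (0.101) and 1.61 without colony 1 of the miR-302KO (0.105). The other lost it with no trend in the spread (0.052). For Mbd2 the sum was 1.30 and the double KO 1.72, a non-additivity of 0.43 with a 95% interval of −0.68 to 1.54. Of all genes, 23.6% departed from the sum (12% above, 11.7% below), near the 2 of 10 seen here. Slc2a1, not called, was called without colony 1 of the double KO (2.25, adjusted p = 0.0253).

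**Figure D3:**
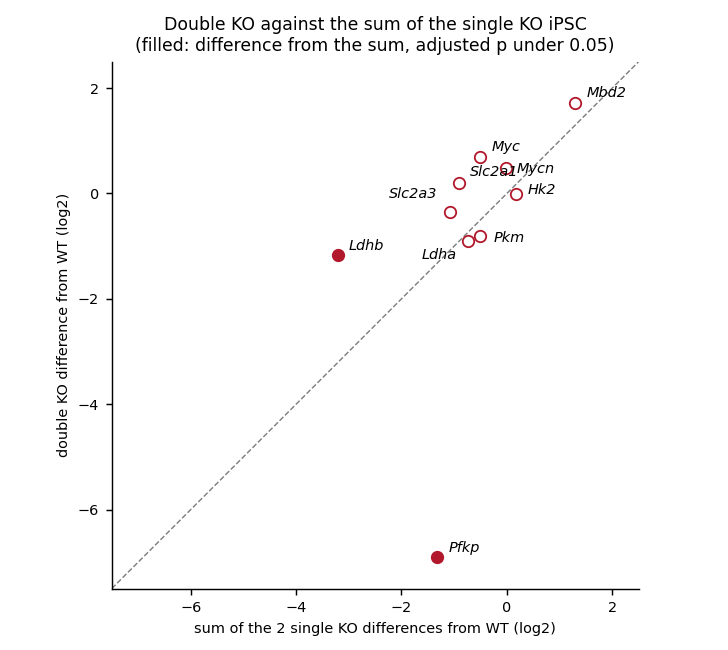
Log2 difference of the double KO from WT iPSC (vertical) against the sum of the differences of the 2 single KO iPSC from WT (horizontal) for the 10 genes; the dashed line marks equality and filled points depart from it at an adjusted p under 0.05. Pfkp lies 5.59 below the line and Ldhb 2.04 above it, and the other 8 do not pass.

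The median over the measured genes of chromosome 18 or 6 differed from that of all genes in some colonies. Mbd2 lies on the former, and Hk2, Slc2a3 and Ldhb lie on the latter. In colony 2 of the miR-290KO iPSC, the median log2 difference from the WT mean was 0.64 over 300 genes of chromosome 18 and 0.11 over all genes. In colony 1 it was 0.17 for both. Mbd2, on chromosome 18, stood at 1.2 in colony 2 and 1.30 in colony 1. The part of the chromosome 18 shift in the value of Mbd2 was not tested. In both double KO colonies, 584 genes of chromosome 6 had medians of 0.62 and 0.70, against 0.15 and 0.18 for all genes, and chromosome 18 stood at −0.01 and 0.06. Against the chromosome 6 median of 0.65 in double KO minus WT, Hk2 (−0.01), Slc2a3 (−0.36) and Ldhb (−1.17) were all lower. The part of this shift in their values was not tested.

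**Figure D4:**
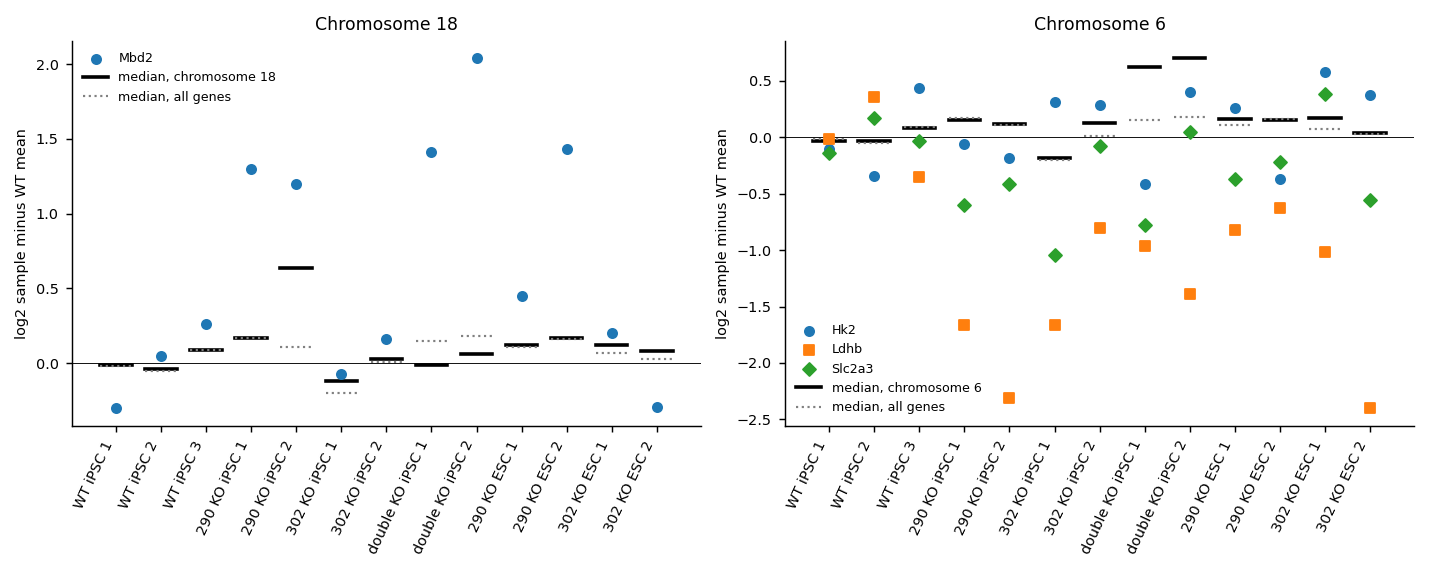
Log2 difference from the WT mean in each of the 13 samples for Mbd2 (left) and for Hk2, Ldhb and Slc2a3 (right), with the median of all genes on the same chromosome (black bar) and of all genes (dotted). The chromosome 18 bar is raised in colony 2 of the miR-290KO iPSC (0.64), the chromosome 6 bar in both double KO colonies (0.62 and 0.70).

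In the double KO, where the pluripotency markers stood at 58.3 to 109 CPM, most called genes of glycolysis were lower. Of 22 measured glycolysis enzyme genes, members included, 11 fell, 1 rose and 10 did not pass, against 21.5% of all genes lower and 27.4% higher. The median log2 difference was −0.86 against 0.16 for all genes. The median was the same with the 2 genes at 0 reads in the double KO (Pgam2 and Eno1) set to their bound. Of the 17 genes of the list that are not members, 7 fell, 1 rose and 9 did not pass, with a median of −0.82. Besides Pfkp, Pkm, Ldha and Ldhb, those that fell included Aldoa (−1.91, adjusted p = 0.000463), an aldolase whose reads could not be recovered, and Pfkl (201 to 91.8 CPM, −1.25, adjusted p = 0.0129), the liver phosphofructokinase. Pgam2, a phosphoglycerate mutase, had 2.70 CPM in WT and 0 reads in the double KO, which allows up to 0.0473 CPM. Eno2, the neuronal enolase, rose from 1.63 to 10 CPM (2.37, adjusted p = 0.00645). The muscle phosphofructokinase Pfkm did not pass (24 and 18.3 CPM). Without colony 1 of the double KO, 6 of the 22 were called in place of 12. In miR-290KO iPSC the list gave the falls of Pfkp and Ldhb and no other call, and in miR-302KO iPSC none. Several of these genes have near-identical copies (Eno1 and Eno1b, and the pseudogenes of Ldha and Gapdh), and how reads that map to both were counted is not given in the sources used here.

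**Figure D5:**
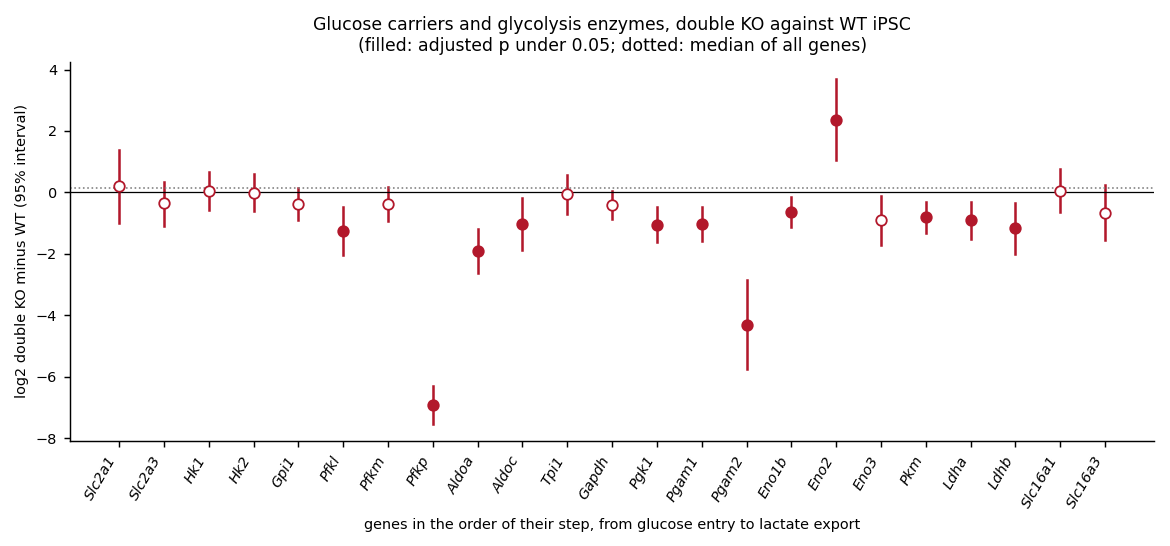
Log2 difference of double KO from WT iPSC with its 95% interval for 23 genes of glucose carriers, glycolysis and lactate carriers, in the order of their step; filled points have an adjusted p under 0.05. From the phosphofructokinases on, 11 genes are filled below 0 (Pfkp lowest at −6.91) and Eno2 alone is filled above it.

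Of 20 measured glucose and lactate carriers and genes of pyruvate entry, 4 rose and 5 fell, with a median of −0.16. These shares are near the background of 27.4% higher and 21.5% lower. The risers were Mpc1 and Mpc2, which carry pyruvate into mitochondria (24.8 to 83.5 CPM, 1.75, adjusted p = 0.00319, and 33.3 to 96.2 CPM, 1.52, adjusted p = 0.00209), Pdk2, a kinase that restrains pyruvate dehydrogenase, and Pdha1, a subunit of that enzyme (255 to 551 CPM). Among those that fell was Pdp2, a phosphatase that activates pyruvate dehydrogenase (39.9 to 9.90 CPM). Slc2a5, a fructose carrier, had 2.55 CPM in WT and 0 reads in the double KO. Of 16 TCA cycle enzymes, 2 fell (Sucla2 and Ogdh) and 0 rose, and without colony 1 of the double KO none was called. Of 7 pentose phosphate enzymes, 3 fell (Pgd, Taldo1 and Rpe) and 1 rose (Pgls). Of 16 regulators of glycolysis, 6 rose, among them Pfkfb3, which makes an activator of phosphofructokinase (13.9 to 47.2 CPM, 1.81, adjusted p = 0.0173), and Arnt, the partner of Hif1a (25.8 to 67.2 CPM). The 3 that fell were Fbp2, Pfkfb1 and Tigar. The counts of TCA cycle, pentose phosphate and regulator genes stand against the same background of 27.4% higher and 21.5% lower. In all, 49% of all genes were called. Fbp2, a fructose bisphosphatase, was also lower in miR-290KO than in miR-302KO cells, with log2 differences of −3.57 in iPSC (adjusted p = 0.0245) and −3.47 in ESC (adjusted p = 0.041). It was the 1 regulator of the 16 called in each, against 2.25% of all genes in iPSC and 0.587% in ESC. Fbp2 had 60 reads in all miR-290KO iPSC libraries. With only the ESC groups fitted, 0 genes were called between them. Without colony 2 of the double KO, 5 of the 16 were called in place of 9.

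Mbd2 was 1 of 7 genes that rose among 19 of methyl-CpG binding and NuRD. Among the others that rose were Chd3, a NuRD remodeller (28.8 to 98.4 CPM, 1.76, adjusted p = 0.000285), and Zbtb33 (8.44 to 27.3 CPM). Hdac1 and Rbbp4, which belong to NuRD and to other complexes, fell (652 to 230 CPM, −1.51, adjusted p = 6.59e-05, and 682 to 474 CPM). The counts of 7 higher and 2 lower stand against 27.4% and 21.5% of all genes, and 9 of 19 called is near the background of 49%. The list's median was 0.38 against 0.16 for all genes. In neither single KO against WT was any of the 19 called.

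Of 15 measured genes of the Myc network, 4 rose and 5 fell, against 27.4% of all genes higher and 21.5% lower. Mxd4, a Max partner that represses, rose from 0.136 to 19.6 CPM (6.04, adjusted p = 0.000119), and Mxd3 of the same family from 7.89 to 26.2 CPM (1.70, adjusted p = 0.00327). Mycl, the third Myc gene, fell from 16.0 to 0.105 CPM (−6.01, adjusted p = 7.24e-07). For Mxd4 and Mycl, near the floor in 1 group, the prior makes the log2 value smaller than the CPM imply. Without colony 1 of the double KO, 5 of the 15 were called in place of 9. Of 25 genes known to be activated by Myc, 18 fell, 2 rose and 5 did not pass, against the same background, with a median of −0.85 against 0.16 for all genes. Odc1, the first enzyme of polyamine synthesis, fell from 870 to 310 CPM (−1.50, adjusted p = 0.000125), and Hspe1, a mitochondrial chaperone, from 1497 to 553 CPM. The risers were Nme1 and Ccnd2. Ccnd2, which encodes cyclin D2, rose from 5.75 to 4089 CPM (9.50, adjusted p = 4.91e-10) and in miR-290KO iPSC by 3.31 (adjusted p = 0.00221). No other gene of this list was called in a single KO against WT.

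The sequence that Myc and Max bind, CACGTG (the same on both strands), was searched in RefSeq windows from 250 bases before to 50 after a gene's start (GRCm38.p6). The tables held 9 windows of 7 of the 10 genes. Only a window of Ldha held it, in 2 places, against 10% of 12381 windows of measured genes. That window is shown with CACGTG in capitals because it is the 1 window among these genes that holds the sequence. It lies at chr7:46845554-46845853, plus strand.
Ldha: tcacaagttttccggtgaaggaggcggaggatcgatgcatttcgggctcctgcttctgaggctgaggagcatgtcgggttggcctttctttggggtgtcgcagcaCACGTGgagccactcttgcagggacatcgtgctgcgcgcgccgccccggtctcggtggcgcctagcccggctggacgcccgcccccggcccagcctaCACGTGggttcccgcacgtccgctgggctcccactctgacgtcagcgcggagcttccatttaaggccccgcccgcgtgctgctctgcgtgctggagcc
The second window of Ldha and those of Slc2a1, Hk2, Ldhb, Pkm, Mycn and Pfkp held no such letters, which says nothing about binding elsewhere. The window of Pfkp, at chr13:6648722-6649021 on the minus strand, is shown because its gene fell most, and no letters in it are in capitals. It holds 21 CpG sites, near the median of 20 over all windows. Mbd2 binds sites of this kind when they are methylated.
Pfkp: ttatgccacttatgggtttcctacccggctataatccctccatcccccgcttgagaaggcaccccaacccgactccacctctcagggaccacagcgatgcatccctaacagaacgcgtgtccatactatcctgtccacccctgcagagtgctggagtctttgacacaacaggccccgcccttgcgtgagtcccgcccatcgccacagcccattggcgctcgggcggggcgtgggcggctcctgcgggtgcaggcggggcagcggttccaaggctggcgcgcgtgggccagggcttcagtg
Neither DNA methylation nor binding of Mbd2 was measured in these libraries.

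The single KO iPSC and ESC of the same genotype were compared gene by gene. None of the 10 genes was called for miR-290KO or for miR-302KO, nor was any other gene (background 0% in both with limma). Of 12778 genes, 492 and 1343 had an unadjusted limma p under 0.05. Without any difference, a share of 0.05 of the genes would be expected there. The largest differences among the 10 with an unadjusted p under 0.05 were Ldhb for miR-290KO (−1.26, 95% interval −2.18 to −0.34) and Pkm for miR-302KO (0.67, 95% interval 0.11 to 1.23). The Pkm difference was 0.16 without the library that stood apart. For Pfkp the differences were 0.20 in both genotypes (95% interval −0.48 to 0.88 in each).

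The genes whose log2 values ran most alike with Mbd2 over the 13 samples were Kremen1 (Pearson r = 0.952) and Usp47 (0.950). With Mycn they were Htatip2 (0.956), Lztr1 (0.946) and Smyd2 (0.935), with Myc Wsb1 (0.909), Cask (0.875) and Kmt2d (0.85), and with Ldhb Sec22a (0.869), Hsbp1l1 (0.868) and Hacl1 (0.859). For Pfkp, added after its values were seen, they were Dio3 (0.989), Gm2694 (0.986) and Fmr1nb (0.986). These are descriptions over 13 samples of 6 groups.

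For the members that differed, the authors' deposited tables gave the same directions. They come from the same study and are no separate evidence. In double KO against WT they list Mbd2 at 1.49 (SE 0.29, adjusted p = 1.08e-06), Pfkp at −7.36, Ldhb at −1.45, Ldha at −1.11 and Pkm at −1.06 on the log2 scale. In miR-290KO against WT they list Pfkp at −2.09 and Ldhb at −2.13. The table of miR-302KO against WT lists none of the 10. Every gene in the authors' deposited tables has an adjusted p under 0.05.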

How the data were processed

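RNA 3′ ends were sequenced with QuantSeq 3′ FWD from 200 ng of total RNA as single-end 50-base reads, per the labels' protocols. The submitters' processing notes name Trim Galore 0.66, STAR, Salmon 1.4.0, FastQC 0.11.9, MultiQC, limma, DESeq2 1.34.0 and mm10, with no role or order. The matrix the authors deposited holds log2 values of CPM with a small prior. Whole reads were recovered from it for 12237 of 12778 genes (99.66% of values whole within 0.02 reads), which gave the CPM. The authors' deposited tables give log2 fold changes, p-values, adjusted p-values and a test score per gene, and, per the file headers, a base mean signal (normalized counts averaged over libraries). A further 6 columns of other samples were not used. The 2 libraries of a colony were averaged on the log2 scale, which left 13 samples, and all 6 groups were fitted in limma 3.58.1 (R 4.3.3, empirical Bayes with a trend, 7 residual degrees of freedom). P-values were adjusted by Benjamini-Hochberg over 12778 genes and called under 0.05. There were 10 comparisons and 1 added after the values were seen, with 23 alternatives (1 added after seeing the data). From each list at most the 4 called genes with the largest rise and the 4 with the largest fall in the double KO were to be named, and further genes named were chosen after their values were seen. Members and lists were chosen with earlier results of these data known. The fit was also run on simulated data with independent samples and a small set of changed genes. That setting differs from the double KO comparison, and no support is drawn from it. A result on a further gene is not reported here.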

Additional observations from a re-analysis of the deposited data

Results flagged for a closer look

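For Pfkp, the double KO difference from WT departed from the sum of the single KO differences by −5.59 on the log2 scale (limma adjusted p = 1.81e-06). For Ldhb the difference from that sum was 2.04 (limma adjusted p = 0.0233), in the other direction. Both were picked out because the test of the interaction itself passed. For the 10 genes in the 3 groups of 4 libraries, 30 sets of values in all, no library's gap to the next passed Dixon's limit. Each set holds only 4 values, from 2 colonies, so the limit is passed only by very large gaps. It did not flag Pkm at 5788 CPM in the miR-302KO iPSC library that stood apart. The result therefore does not show that no library was unusual.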

How the results depend on the processing

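Of 2530 values of the 10 genes under the alternatives, 0 reversed a called direction and 91 that were not called changed sign. The numbers of genes called in miR-290KO against WT iPSC (201) became 339 with colony 1 of the miR-302KO taken from its first library, 409 with each library as a sample, 343 with a within-colony correlation, 371 on log2(CPM + 1) and 386 with sample weights. In miR-290KO against miR-302KO iPSC (287) they became 1061 and 901 by library without and with the correlation, 454 on log2(CPM + 1), 6 with only the groups compared and 23 with sample weights. Between the ESC groups (75) they became 129, 9, 7 and 0 for the first library, by library, with the correlation and with only the groups compared. In miR-302KO against WT (4) they were 20 and 16 by library and 7 with no trend. Between iPSC and ESC (0) they were 1, 1 and 4 for miR-290KO (by library, with the correlation, with weights) and 1 and 1 for miR-302KO (mean of at least 1 CPM, median-of-ratios scaling).

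Same-numbered samples had deviations correlated at −0.267 to 0.184. In groups of 2 samples the deviations mirror each other, so the sign of these values rests on the numbering. Whether same-numbered samples share a batch was not tested. With the replicate block, 55 genes were called in miR-290KO against WT, 137 in miR-290KO against miR-302KO iPSC, 28 between the ESC groups and 2 in miR-302KO against WT. Of the 10 genes, the replicate block called 3 in double KO against miR-302KO (5 without it) and 1 in miR-290KO against WT (2 without it), and it ended the call of Ldha in double KO against WT (−0.85, adjusted p = 0.063).

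Of the 10 genes, double KO against miR-302KO called 3 with the first library alone, 3 with no trend, 2 with only the groups compared and 3 with weights. MiR-290KO against WT called 1 and the non-additivity 1 with no trend, the ESC comparison 0 with only the groups compared, and miR-290KO against miR-302KO iPSC 3 by library with or without the correlation.

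Leaving out 1 sample, genes called ranged from 4495 to 6597 in double KO against WT, 2682 to 4541 against miR-290KO and 4465 to 6211 against miR-302KO. They ranged from 2 to 300 in miR-290KO and 3 to 1273 in miR-302KO against WT, 15 to 1279 between these, 4 to 357 between the ESC groups and 1834 to 3817 for non-additivity. They ranged from 0 to 7 and 0 to 955 between iPSC and ESC for miR-290KO and miR-302KO, and 0 to 5 for the difference between iPSC and ESC. Of the 10 genes, 4 to 5, 1 to 2 and 2 to 4 were called in double KO against WT, miR-290KO and miR-302KO, 0 to 2 and 0 to 1 in miR-290KO and miR-302KO against WT, 0 to 2 between these, 0 to 1 between the ESC groups and 1 to 2 for non-additivity. A group left with 1 sample is assumed to vary like the others. The cause was not tested. Among the 10 genes, Myc had 0 to 225 reads per library and Pfkp 62 reads in all double KO libraries.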
